A study of Mus musculus with 48 samples.

Results

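The genes described here are 9 genes induced by neuronal or vascular activity. Several of their products damp the signal that induced them or act in vessels and matrix. The 9 are the kinase gene Sik1, the phosphatase genes Dusp1, Dusp4, Dusp5 and Dusp6, the endothelial gene Apold1, the matricellular gene Cyr61, the small Maf gene Maff and the microRNA gene Mir132. They are 9 of 15649 annotated genes with an m6A peak in at least 1 animal. They were selected on measured values of these data, the levels of their peaks in trained against naive mice, so every trained-against-naive value below is a description and carries no test. Peaks of all animals were joined into regions, and a region was assigned to a gene by overlap with its body on the mouse genome mm9. A single peak of such a region can lie beside the body, as in some animals at Mir132. Rows of the comparison tables were assigned by the gene name they carry.

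Hippocampi came from male C57BL/6 mice that were wild-type (HdhQ7/7, WT) or heterozygous knock-in (HdhQ7/Q111, KI), with a lengthened CAG repeat inserted into 1 copy of the huntingtin gene Htt. At 5 or 8 months of age, mice were left naive or were habituated to an arena, explored 2 objects in it for 10 min (the object location task) and were killed 30 min later. This gave 8 conditions of 3 animals, and no animal was in more than 1 condition. In MeRIP-seq, fragments carrying N6-methyladenosine (m6A) are pulled down with an antibody (IP) and compared with the input RNA of the same animal. Whole hippocampus was used, so in all values below fewer cells of a type and less RNA per cell cannot be told apart.

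The peak lists held 22601 to 57293 peaks per animal, which joined into 81807 regions. As a check of the genotype labels, a region of Htt (chr5:35104810-35105427) had a peak in all 12 KI animals and in 0 of the 12 WT animals. Of the 10 hippocampal neuron markers, 9 or 10 had a peak in every animal, of the 10 endothelial markers 7 to 9, and of the 10 choroid plexus markers 2 to 8. The authors gave only a common approximate depth, so the depth of each single library is unknown. The absence of a peak does not show the absence of m6A.

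m6A is set on nascent RNA by the METTL3 methyltransferase complex in the sequence DRACH (A, G or T, then A or G, then AC, then A, C or T), most often near stop codons and in 3′UTRs, and it marks transcripts for splicing, export, translation or decay. Neuronal activity raises calcium and cAMP and switches on MAP kinases and the transcription factor CREB. Within minutes these induce immediate-early genes, among them brakes on the same pathways. SIK1 phosphorylates the CREB coactivators of the CRTC family and keeps them out of the nucleus, and DUSP phosphatases remove the activating phosphates of MAP kinases. The microRNA miR-132, transcribed from a CREB target locus, acts on dendrites and synapses. APOLD1 is an immediate-early protein of endothelial cells, CYR61 a secreted protein of the extracellular matrix, and MAFF a DNA-binding partner that has no activation domain of its own.

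Windows of 30 bases on the transcribed strand of mm9 are shown for the region of each gene called in most animals, with the GGAC nearest the median summit in capitals or, where the 101 bases around that summit held no GGAC, the nearest DRACH. A DRACH can lie nearer the summit than the GGAC shown, and the summit itself can lie outside the window shown.

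Sik1 (3′UTR, chr17:31983144-31983173, minus strand): accgtggccgatTGACTcttccaagcaata
Dusp1 (CDS, chr17:26643262-26643291, minus strand): cgtccaccccacGAACAgtgccctgaacta
Dusp4 (first exon, chr8:35870786-35870815, plus strand): gtgacgatggagGAACTgcgggagatggac
Dusp5 (3′UTR, chr19:53616073-53616102, plus strand): cctgcccactcaGGACcacctagtccttgc
Dusp6 (CDS, chr10:98727425-98727454, plus strand): gggctgtgccaaGGACtcgaccaacttgga
Apold1 (CDS, chr6:134934185-134934214, plus strand): gccaagattcagAAACTgtcagagagcctg
Cyr61 (3′UTR, chr3:145310585-145310614, minus strand): ctagtgtgggctGGACagaggagaagcgca
Maff (3′UTR, chr15:79188875-79188904, plus strand): aacagtaccccgGGACtgaataacatggta
Mir132 (primary transcript, chr11:74986536-74986565, plus strand): gcggctttcttgGGACccccgtcctgcatg

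Across the 21 regions of these genes called in at least 12 animals, 17 windows of 101 bases (81.0%) held a DRACH and 10 (47.6%) a GGAC. Of the 22074 windows of the same length at all such regions inside genes of 1 strand, 86.0% held a DRACH and 44.1% a GGAC. The shares of the 9 genes were thus near those of all regions.

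The hairpin of Mir132 yields 2 mature microRNAs, and the hairpin of Mir212 begins 277 bp upstream of it in the same primary transcript. Their mature sequences (RefSeq, GRCm38.p6) are shown because the m6A region covers both hairpins, with the seed, bases 2 to 8, in capitals.

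mmu-miR-132-3p: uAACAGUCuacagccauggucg
mmu-miR-212-3p: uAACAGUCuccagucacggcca
mmu-miR-132-5p: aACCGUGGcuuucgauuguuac
mmu-miR-212-5p: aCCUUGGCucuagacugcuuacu

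miR-132-3p and miR-212-3p shared the seed and were identical at 17 of 22 positions, whereas the 5p arms had different seeds.

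Promoters from 250 bases before to 50 after the gene start were given for 6 of the 9 genes (RefSeq, GRCm38.p6). They were searched on both strands for the CREB element TGACGTCA, its half-site TGACG (contained in the full element) and the CArG box bound by serum response factor. Among all 32851 promoters of the table, 1.79% held TGACGTCA, 20.81% TGACG and 1.63% a CArG box. TGACGTCA was found at Dusp1 and Maff, a TGACG at 5 of the 6 genes (all but Dusp6), and CArG boxes at Dusp5. The 6 genes had 8 promoters, of which 3 were those of Maff. Counted by promoter, as the shares above are, TGACGTCA was in 2 of 8, TGACG in 6 and a CArG box in 1. The 3 windows below show the full CREB elements and 1 of the CArG boxes in capitals.

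Dusp1 (chr17:26508597-26508626 of GRCm38.p6, minus strand): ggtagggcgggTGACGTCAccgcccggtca
Maff (chr15:79347480-79347509 of GRCm38.p6, plus strand): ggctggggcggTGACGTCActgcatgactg
Dusp5 (chr19:53529063-53529092 of GRCm38.p6, plus strand): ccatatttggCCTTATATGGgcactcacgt

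All 9 genes carried m6A in naive and trained mice of both genotypes. They held 34 regions, of which 10 were called in all 24 animals, with at least 1 of these in every gene except Maff. The main region, the one called in most animals and among those the one with the highest median fold enrichment, lay in the 3′UTR of Sik1 (chr17:31982408-31983797), Dusp5 (chr19:53615270-53616705), Cyr61 (chr3:145310050-145311068) and Maff (chr15:79188560-79189033) by its median summit. It lay in the coding sequence of Dusp1 (chr17:26642714-26643755), Dusp6 (chr10:98727046-98727612) and Apold1 (chr6:134933587-134935180). In Dusp4 the main region spanned the first exon, with its median summit in the 5′UTR (chr8:35869595-35873616), and a second region called in all animals covered the 3′UTR (chr8:35881302-35882450). The region of Maff was called in 23 of 24 animals and was missing in 1 trained WT animal of 5 months.

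**Figure D1:**
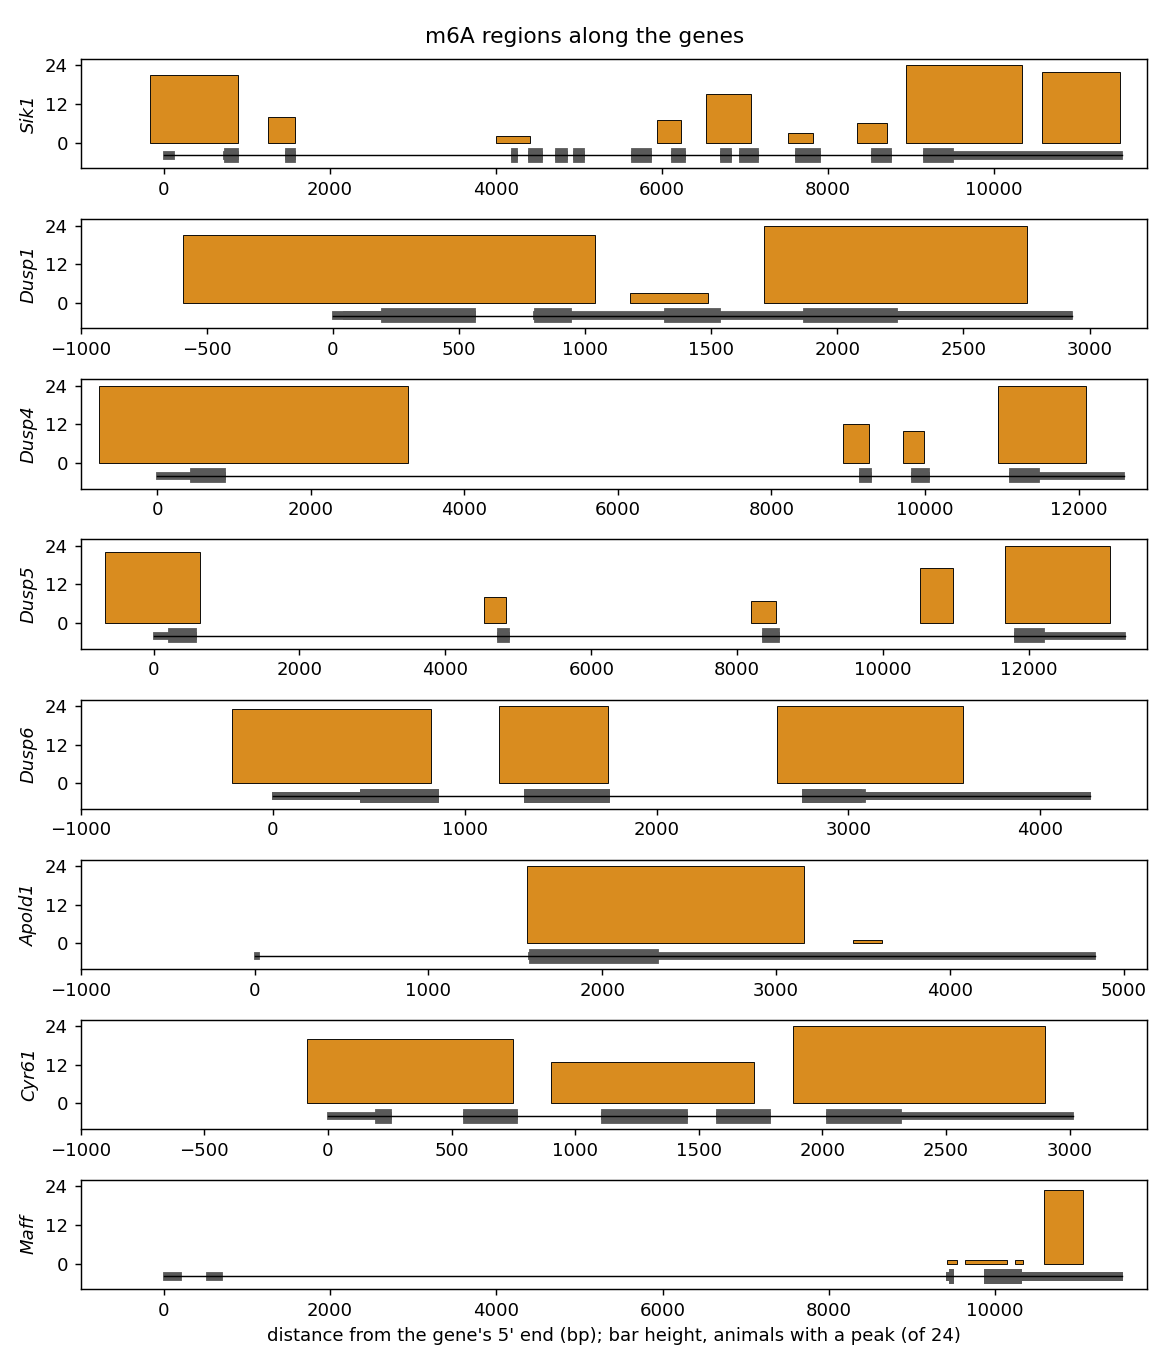
Regions of m6A along the 8 protein-coding genes, drawn from the 5′ end of each gene. The x axes give the distance from the gene start in bp, the bars the number of animals with a peak (of 24), and the grey boxes below them exons, taller where coding; each of these genes had at least 1 region called in 23 or 24 animals.

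At Mir132 the region covered chr11:74985888-74987661, a stretch of 1774 bp around the hairpin (chr11:74987167-74987267), and was called in 24 of 24 animals. Its median summit lay 639 bp upstream of the hairpin. The hairpin itself was inside a peak in 12 animals, 5 naive and 7 trained, and in 10 animals the region was split into more than 1 peak. The peaks thus mark the primary transcript and not the mature microRNA.

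Of the regions over 5′ ends, that of Dusp4 was called in all 24 animals and that of Dusp6 (chr10:98725655-98726690) in 23, all but 1 trained WT mouse of 5 months. Those of Sik1, Dusp1, Cyr61 and Dusp5 were called in 20 to 22 animals, and the calls missing were at 5 months. The 5′ region of Sik1 (chr17:31991838-31992897) was called in 1 of 3 naive WT, 3 of 3 naive KI, 2 of 3 trained WT and 3 of 3 trained KI mice of 5 months, and in 12 of 12 mice of 8 months. Dusp1 (chr17:26644424-26646058) gave the same counts. The 5′ region of Cyr61 (chr3:145312199-145313034) was called in 1, 2, 2 and 3 of 3 of these groups at 5 months and in 12 of 12 mice of 8 months. That of Dusp5 (chr19:53602927-53604237) was called in 2, 3, 2 and 3 of 3 and in 12 of 12. These 4 regions thus had fewer calls in WT than in KI mice at 5 months. The WT mice of 5 months also had fewer peaks in all, 22601 to 34390 against 32076 to 40799 in KI mice, whose part in these calls was not tested. In each of the 3 that could be tested the difference between genotypes over both ages did not pass the test (Fisher's exact test, adjusted p = 1 each).

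The authors' mean levels were read here as the log2 of normalized IP reads in a peak, averaged over a group. They were higher in trained than in naive mice for nearly all peaks of these genes that the tables list. A table lists a peak only where the authors' test gave a p of up to 0.05, and its levels are the authors' means with no error. In the 4 tables that set trained against naive mice of 1 genotype and 1 age, 62 peaks of the 9 genes were listed and 59 were higher in trained mice, beside 41.9% of all 29096 listed peaks. All 9 genes were listed in KI mice at both ages and in WT mice of 8 months, and 8 (all but Maff) in WT mice of 5 months. Because the genes were selected on this contrast, these counts describe the selection.

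The share of all listed peaks that were higher in trained mice differed between tables. In WT mice of 5 months it was 15.9%, and all 10 listed peaks of the 9 genes were on the higher side. In KI mice of 5 months it was 50.4%, with 14 of 14 peaks of the 9 genes higher. At 8 months it was 49.6% in WT mice, with 16 of 19 higher, and 45.3% in KI mice, with 19 of 19 higher. The exceptions were the 3 listed peaks of Dusp4 in WT mice of 8 months. In the table of both genotypes at 8 months 47.9% of all listed peaks and 19 of 20 of the 9 genes were higher in trained mice.

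**Figure D2:**
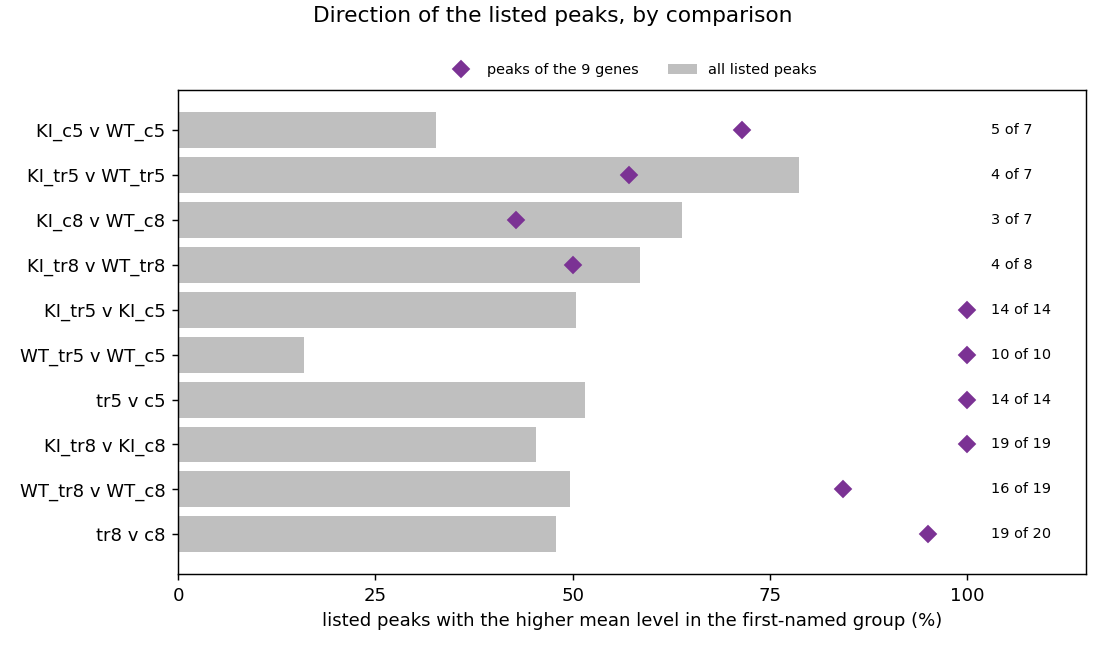
Share of listed peaks, in percent on the x axis, whose authors' mean level was higher in the first-named group of each comparison (c, naive; tr, trained; 5 and 8, months of age). Grey bars stand for all listed peaks and diamonds for peaks of the 9 genes, with their counts at the right; in the training comparisons the diamonds lie at 16 of 19 or above, and in the genotype comparisons between 3 of 7 and 5 of 7.

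The table of both genotypes at 5 months stood apart. It listed 14 peaks of the 9 genes, all higher in trained mice, beside 51.6% of all its peaks. However, at peaks matched by 80% reciprocal overlap, its trained level differed from the levels of trained mice of 8 months by a median of 0.09 (WT) and 0.13 (KI) on the log2 scale, and from those of trained mice of 5 months by 0.21 (WT) and 0.25 (KI). Its naive level differed from those of naive mice of 8 months by 0.12 (WT) and 0.23 (KI). From those of naive mice of 5 months it differed by 0.16 (WT) and 0.24 (KI). For Apold1 this table gave a trained level of 10.21, above the 9.77 and 9.88 of the trained WT and KI mice of 5 months. Its values were therefore left out of the levels given below. Without this table, 78 of 82 listed peaks in the 5 other training tables were higher in trained mice.

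The Mir132 region had a wider spread of levels than the main region of Sik1. Its level was 10.44 in naive and 12.55 in trained WT mice of 5 months and 11.28 and 12.45 in those of 8 months. In KI mice it was 11.43 and 12.24 at 5 months and 11.19 and 12.77 at 8 months. The naive WT mice of 5 months were thus the lowest of the 8 groups, and each trained group was above the naive group of its table. Levels of different tables were normalized separately, so this order across groups is only approximate.

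The main region of Sik1 had a level of 10.53 in naive and 11.53 in trained WT mice of 5 months, and of 10.86 and 11.97 in those of 8 months. In KI mice the levels were 10.86 and 11.49 at 5 months and 10.89 and 11.75 at 8 months. The second 3′UTR region of Sik1 (chr17:31981220-31982161) moved the same way, with 8.79 in naive and 9.27 in trained WT mice of 5 months, and with 8.69 and 9.22 in KI mice of 8 months. Sik1 was also listed with peaks over its inner exons and introns at 8 months, with levels from 6.91 to 8.21 in the WT groups and from 6.58 to 7.58 in the KI groups. Every listed training peak of Sik1 was thus higher in trained mice.

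Among the MAP kinase phosphatases, the main region of Dusp1, a nuclear phosphatase of all MAP kinase families, had a level of 11.75 in naive and 12.14 in trained WT mice of 5 months, and of 11.32 and 12.23 in those of 8 months. In KI mice it was 11.43 and 11.87 at 5 months and 11.56 and 12.39 at 8 months. The main region of Dusp5, a nuclear phosphatase specific for ERK, was listed in KI mice with 11.80 and 12.46 at 5 months and 11.98 and 12.62 at 8 months, and in WT mice of 8 months with 12.25 and 12.59. In WT mice of 5 months only the 5′ region of Dusp5 was listed for training, with 7.64 in naive and 9.33 in trained mice. Dusp6, the cytoplasmic phosphatase of ERK, had a level in its main region of 11.50 and 11.92 in WT and of 11.57 and 11.96 in KI mice of 5 months, and of 11.52 and 11.89 in KI mice of 8 months. The gaps of Dusp6 were the narrowest among these 3 genes in the groups where all had a listed main region.

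Dusp4, a nuclear phosphatase of ERK and JNK, did not follow the others in WT mice of 8 months. In WT mice of 5 months its main region had a level of 11.67 in naive and 12.17 in trained animals, and in KI mice of 12.23 and 12.45. In WT mice of 8 months the order was the other way, with 12.72 in naive and 12.51 in trained animals. The 3′UTR region of these mice was at 11.73 and 11.52, and an intronic region (chr8:35879288-35879625) at 8.37 and 7.75. In KI mice of 8 months the 3′UTR region was listed with 11.58 in naive and 11.80 in trained animals. Whether training acted differently on Dusp4 in the 2 genotypes was not tested, since the tables give no animal's value.

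The vascular and matrix genes were higher in trained mice in all 4 tables of 1 genotype and age. The main region of Apold1 had a level of 8.64 in naive and 9.77 in trained WT mice of 5 months, and of 8.57 and 10.10 in those of 8 months. In KI mice it was 8.74 and 9.88 at 5 months and 8.87 and 10.08 at 8 months. Cyr61 had 8.84 and 9.73 in WT and 8.71 and 9.28 in KI mice of 5 months, and 8.88 and 10.08 in WT and 8.91 and 10.16 in KI mice of 8 months. For both genes the trained group was thus above the naive group of its own table each time. The inner exons of Cyr61 (chr3:145311226-145312046) were listed at 8 months only, with 6.95 in naive and 8.24 in trained WT mice and 7.46 and 8.37 in KI mice.

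The main region of Maff was listed in 3 of these 4 tables. Its level was 6.91 in naive and 8.22 in trained KI mice of 5 months, 6.85 and 8.17 in WT mice of 8 months, and 7.06 and 7.92 in KI mice of 8 months. It was not listed for training in WT mice of 5 months.

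**Figure D3:**
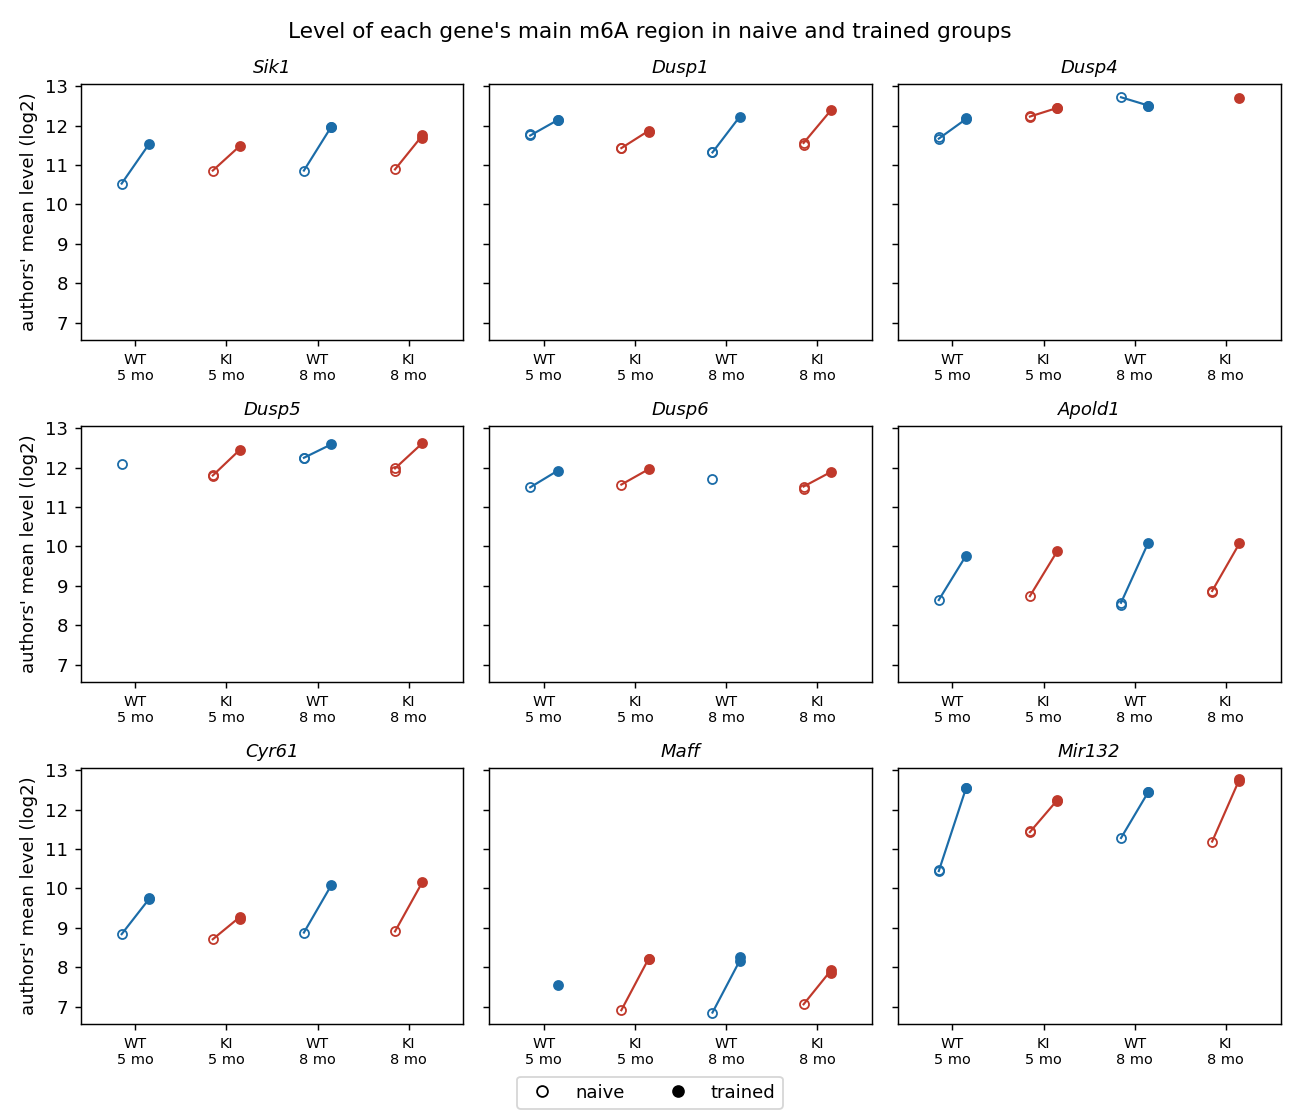
The authors' mean level (read here as log2 of normalized IP reads, y axis) of the main region of each gene in the 8 groups, with WT in blue and KI in red. Open circles are naive and filled circles trained groups, a line joins the values of 1 table, and a group with no circle was not listed; all lines rise from naive to trained except that of Dusp4 in WT mice of 8 months (12.72 and 12.51).

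The level was read here as a count of IP reads, and whether the authors subtracted input reads from it is not stated. Input libraries were not analysed here. A change in the amount of RNA and a change in its methylated share therefore cannot be told apart in the level. The fold enrichment of a peak sets the IP of an animal against its own input. On this measure trained and naive animals overlapped in all 9 genes. In Mir132 it ranged from 3.21 to 18.5 (median 7.13) in the 12 naive and from 4.71 to 9.60 (median 7.14) in the 12 trained animals. In Apold1 it ranged from 4.91 to 17.0 (median 10.7) and from 6.16 to 20.2 (median 9.18). In Cyr61 it ranged from 6.27 to 19.0 (median 10.2) and from 5.58 to 14.3 (median 8.91). The medians of these 3 genes were thus level or lower in trained animals, although their levels were higher in every trained group.

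In Sik1 the fold enrichment of the main region ranged from 5.13 to 16.1 (median 10.7) in naive and from 5.46 to 14.2 (median 9.10) in trained animals. In Dusp1 it ranged from 2.76 to 6.17 (median 4.30) and from 2.60 to 5.80 (median 4.00), and in Dusp5 from 4.97 to 10.2 (median 7.62) and from 4.82 to 8.87 (median 6.31). Dusp4 ranged from 3.84 to 8.23 (median 5.97) and from 3.75 to 7.77 (median 6.04), and Dusp6 from 3.62 to 9.07 (median 4.58) and from 3.01 to 10.7 (median 4.42). None of these 5 genes had a clear order of naive and trained animals.

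Maff stood apart, with a fold enrichment of 4.28 to 7.06 (median 5.00) in the 12 naive animals and of 5.14 to 9.88 (median 7.32) in the 11 trained animals with a peak. The ratio of the trained to the naive median was 1.46 in Maff and from 0.828 to 1.01 in the 8 other genes. Over the 9 genes the median of this ratio was 0.930, with 3 above 1, beside 1 over the 12187 regions called in all animals, of which 51.7% were above 1.

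The -log10 of the q-value, which grows with the number of reads as well as with the enrichment, ran higher in trained animals for 7 of the 9 genes. The ratio of the trained to the naive median was 2.30 in Maff, 1.67 in Mir132, 1.63 in Cyr61, 1.44 in Apold1 and 1.28 in Sik1, and it was below 1 in Dusp1 (0.969) and Dusp4 (0.900). Its median over the 9 genes was 1.28, beside 1.06 over all 12187 regions called in all animals, of which 63.8% were above 1. In Maff the median -log10 q was 8.29 in naive and 19.1 in trained animals.

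**Figure D4:**
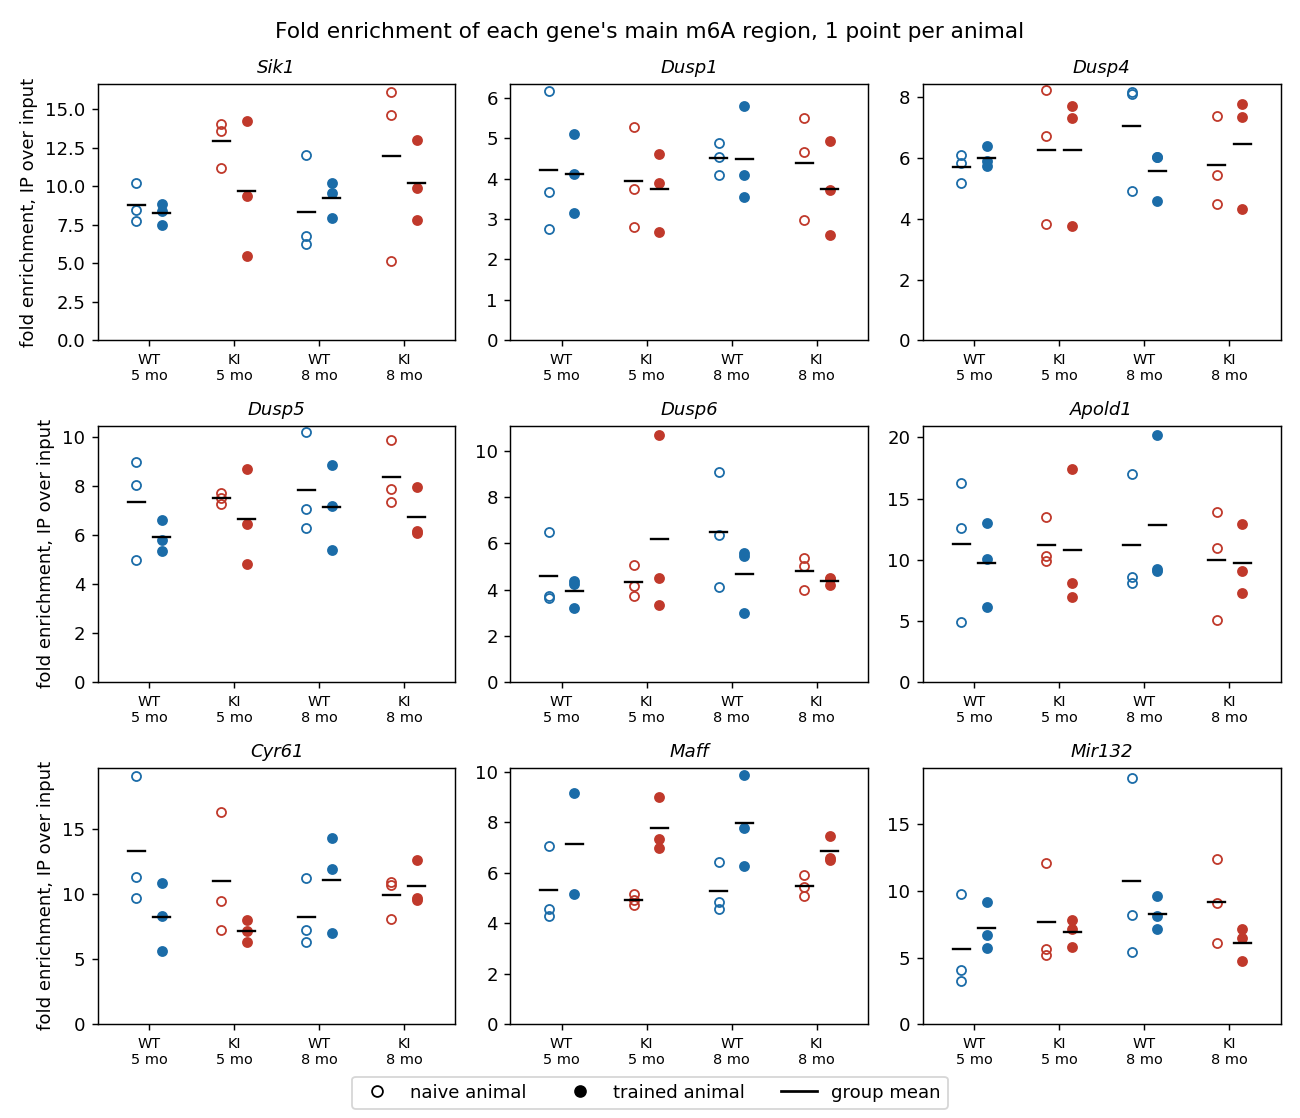
Fold enrichment of IP over input (y axis) in the main region of each gene, with 1 point per animal, open for naive and filled for trained, WT in blue and KI in red, and black lines for group means. Naive and trained animals overlap in all genes; in Maff the naive animals lie between 4.28 and 7.06 and the trained animals with a peak between 5.14 and 9.88.

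The number of regions called in these genes did not separate trained from naive animals either. Naive animals had 15 to 31 of the 34 regions (mean 21.5 ± 5.27 SD, n = 12) and trained animals 14 to 28 (mean 20.8 ± 3.57 SD, n = 12). With the same number of best peaks taken from each animal, the difference between trained and naive animals was 1.83 regions in place of -0.75.

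Between genotypes, the peak lists showed no difference in these genes that passed a test over the whole data set. Fold enrichment could be tested for 7 of the 9 genes, those with a summit inside the gene in all 24 animals, which leaves out Maff and Mir132. KI differed from WT by -0.14 to 0.35 on the log2 scale, centered on the median of each animal, and 0 of the 7 passed, as did 0 (0%) of all 8213 genes tested with limma, of which 333 had an unadjusted p under 0.05. The widest difference was in Sik1, higher in KI by 0.35 ± 0.14 (SE, n = 12 against 12, 95% interval 0.06 to 0.63, limma p = 0.0182, adjusted p = 1). Its centered log2 enrichment was 0.07 to 0.99 (mean 0.46) in WT and 0.19 to 1.23 (mean 0.81) in KI animals. Both genotypes thus overlapped over most of their range. Dusp4 was next, higher in KI by 0.16 ± 0.12 (SE, limma adjusted p = 1). The interval for the 5 other genes reached from -0.61 to 0.32, so differences of that size could not be told from none.

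Of the 34 regions, 15 were called in 3 to 21 animals and could be tested for genotype, and 0 passed, beside 1 of 35110 regions (0.00285%) in the whole data set, the region in Htt. The lowest p belonged to a region over an inner coding exon of Dusp4 (chr8:35880061-35880335), with a peak in 8 KI and 2 WT animals of 12 each (Fisher's exact test, p = 0.0361, adjusted p = 1).

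The comparison tables listed 29 peaks of the 9 genes between genotypes, of which 16 were higher in KI, beside 58.2% of all 25438 listed peaks. In naive mice of 5 months 5 of 7 were higher in KI, beside 32.7% of all listed peaks. In trained mice of 5 months this was 4 of 7, beside 78.7%. In naive mice of 8 months it was 3 of 7, beside 63.8%, and in trained mice of 8 months 4 of 8, beside 58.5%. The genotype tables thus gave no common direction for these genes.

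Single genes changed sides between conditions. Mir132 was higher in KI among naive mice of 5 months (11.45 in KI, 10.47 in WT), lower in KI among trained mice of 5 months (12.22 and 12.55) and higher again among trained mice of 8 months (12.72 and 12.45). Dusp1 was lower in KI at 5 months, naive (11.44 and 11.78) and trained (11.84 and 12.14), and higher in naive KI mice of 8 months (11.51 and 11.32). Maff was higher in trained KI mice of 5 months (8.21 and 7.55) and lower in those of 8 months (7.86 and 8.25). Cyr61 was listed only in trained mice of 5 months (9.23 in KI, 9.75 in WT) and Apold1 only in naive mice of 8 months (8.85 in KI, 8.52 in WT). Of the listed peaks of Dusp4, 1 was lower in KI, the 3′UTR peak at 8 months without training (11.54 in KI, 11.67 in WT), and the rest were higher.

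At 5′ regions, naive KI mice of 5 months were above the WT mice in each of the 4 genes listed there. The 5′ regions of Dusp1 and Cyr61 were not listed in this comparison, and the share over all listed 5′ peaks was not counted. Dusp4 had a level of 12.24 in KI and 11.70 in WT mice. Sik1 had a level of 8.61 in KI and 7.09 in WT mice there, Dusp5 of 8.92 and 7.73, and Dusp6 of 10.22 and 9.46. At the 3′ ends the order of these groups was the reverse in Dusp1 (above) and in Dusp5, with 11.82 in KI and 12.10 in WT mice. In trained mice of 8 months the listed peaks of Sik1 were all lower in KI, with 11.69 in KI and 11.97 in WT mice at the main region.

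Age was compared over all animals, 12 of 5 months with 12 of 8 months. Fold enrichment differed by -0.11 (Dusp1) to 0.08 (Dusp5) on the log2 scale in the 7 genes tested, and 0 of them passed, as did 0 (0%) of all 8213 genes in limma, of which 682 had an unadjusted p under 0.05. The difference between genotypes did not differ between ages in any of the 7 genes beyond the test (limma interaction term, adjusted p = 0.999 each).

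More regions of these genes were called at 8 months, 18 to 31 per animal (median 23.5, n = 12), than at 5 months, 14 to 24 (median 18.0, n = 12). Besides the 5′ regions, the widest gaps lay over inner exons and introns. A region over a coding exon of Sik1 (chr17:31984027-31984387) was called in 6 of 12 animals of 8 months and in 0 of 12 of 5 months (Fisher's exact test, p = 0.0137, adjusted p = 0.312). A neighbouring region over an intron of Sik1 (chr17:31985667-31986211) was called in 11 and 4 of 12 (Fisher's exact test, p = 0.00942, adjusted p = 0.312). Regions of Dusp5 (chr19:53608129-53608429), with 7 and 1 of 12 calls, and of Dusp4 (chr8:35879288-35879625), with 9 and 3, had the next lowest p (Fisher's exact test, 0.0272 and 0.0391, adjusted p = 0.399 each).

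None of the 15 regions tested passed, as did 0 of 35110 regions (0%) in the whole data set, of which 3440 (9.80%) had an unadjusted p under 0.05. Animals of 8 months also had more peaks in all, 29783 to 57293 against 22601 to 40799. With 22601 best peaks taken from each animal, the surplus of calls at 8 months was 3 animals in place of 6 at the exon and 1 in place of 7 at the intron of Sik1.

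Other genes of the same pathways were counted in the 4 training tables of 1 genotype and age, in which 50.4% (KI, 5 months), 15.9% (WT, 5 months), 45.3% (KI, 8 months) and 49.6% (WT, 8 months) of all listed peaks were higher in trained mice. The 9 genes were selected on this contrast, and these lists were chosen with earlier results of these data known. The counts are thus no comparison with the 9 genes. Of 16 further MAP kinase feedback genes (other DUSP, Sprouty and Spred genes and the like), 7 of 7 listed peaks were higher in trained KI mice of 5 months and 8 of 9 in those of 8 months, but 1 of 9 in trained WT mice of 5 months and 5 of 16 in those of 8 months. The difference between genotypes was not tested. Gadd45b, which encodes a stress-induced activator of MAP kinase cascades, was higher in trained mice in all 4 tables, with 8.56 and 9.46 in WT mice of 5 months. Rgs2, a brake on G protein signaling, was lower in trained WT mice of 5 months (12.28 in naive, 12.01 in trained) and higher in the other 3 groups. Of 11 further SIK and CREB feedback genes, 7 of 12 and 7 of 10 listed peaks were higher in trained KI mice of 5 and 8 months, and 5 of 9 and 7 of 11 in trained WT mice. They include Pde4b, the Sik1 paralog Sik2 and Mir212, which shares its peaks with Mir132. The counts of this list thus hold peaks that were selected on this contrast. In KI mice of 5 months, Pde4b was lower in trained mice at 9.04 and 8.46 and at 6.93 and 6.38, but higher at 14.17 and 14.47. It was also lower in trained WT mice of 5 months (9.07 and 8.62, 7.74 and 6.74) and trained KI mice of 8 months (8.92 and 8.44). Of the 6 listed peaks of Sik2, 5 were higher in trained mice, as at 5.50 and 6.90 in KI mice of 5 months, and 1 was lower, at 11.41 and 11.12 in WT mice of 5 months.

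Of the small Maf partners, 4 of 6 and 1 of 3 listed peaks were higher in trained KI mice of 5 and 8 months, and 0 of 2 and 4 of 8 in trained WT mice. Of the CCN family of Cyr61, 1 of 5 listed peaks was higher in trained mice over these tables. Of the endothelial markers, which share a cell type with Apold1, 0 of 2 and 1 of 3 listed peaks were higher in trained KI mice of 5 and 8 months, and 1 of 6 and 4 of 5 in trained WT mice. Of the hippocampal neuron markers this was 9 of 15 and 3 of 6 in KI mice, and 3 of 12 and 3 of 15 in WT mice.

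Markers of the choroid plexus, a tissue that adjoins the hippocampus, moved between trained and naive groups and in opposite directions. Of their listed peaks 0 of 7 and 0 of 3 were higher in trained KI mice of 5 and 8 months and 0 of 6 in trained WT mice of 5 months, against 3 of 3 in trained WT mice of 8 months. Kl, which encodes the klotho protein, had a level of 12.50 in naive and 11.44 in trained WT mice of 5 months and of 11.43 and 11.94 in those of 8 months at its 3′-most listed peak. Clic6, a chloride channel gene of that tissue, had 12.22 and 9.82 in KI mice of 5 months and 7.93 and 7.28 in those of 8 months, but 8.03 and 10.66 in WT mice of 8 months. All listed peaks of Apold1, Cyr61, Sik1, Dusp1, Dusp5, Dusp6 and Mir132 were higher in trained mice in all 4 tables. These genes were selected on this contrast, so their direction describes the selection. The part of the choroid plexus in the values of single genes was not tested.

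In the tests of fold enrichment 0 genes of any of these lists passed for genotype or age, with medians of -0.07 to 0.05 for genotype and of -0.09 to 0.13 for age, beside 0.00 over all genes for both.

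The mean centered enrichment of the 7 genes with a peak in all animals lay between 0.125 (trained KI mice of 8 months) and 0.309 (naive KI mice of 5 months). Over the 8 condition means, the other genes most like it were Gm13832 (Pearson's r = 0.975), Zscan18 (0.942), Plekha5 (0.925), Ripk2 (0.917) and Tsc22d3 (0.916), the highest of 8206 genes ranked. With 8 points and so many genes this is a description only.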

How the data were processed

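The authors trimmed reads with BBDuk, aligned them to mm9 with STAR 2.7.3a, kept unique reads outside repeats, called peaks of each IP against its own input with MACS2 2.2.6, and compared groups with DiffBind 2.8.0 and DESeq2. From the deposited peak lists, the fold enrichment at the summit, a ratio to input, and the -log10 of the q-value were used. From the 10 deposited comparison tables, which end at a p-value of 0.05, only peak positions, gene names and the authors' mean log2 levels were used. Their columns of fold changes, p-values and adjusted p-values hold the authors' own comparisons and were not used. Which of the 2 level columns belongs to which group follows the order in the series' design text. The same group's level at the same peak differed between its 2 tables by a median of 0.000 to 0.050, and by 0.360 to 0.900 with columns swapped. Input libraries (24) were not analysed here, and the depth of each single library is unknown.

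Peaks of all animals sharing at least 1 bp were joined into regions with pandas 2.3.3. Regions called in 3 to 21 animals were tested with 2-sided Fisher's exact tests (SciPy 1.17.1), 12 against 12 animals. Each gene's best peak, the highest fold enrichment with its summit in the gene body (GENCODE vM1), was taken as log2, centered on the animal's median over genes and tested with limma 3.58.1 (lmFit and robust eBayes over 8 condition means) for genotype and age. Benjamini-Hochberg adjustment ran over all regions or genes, with 0.05 as threshold. Both tests were checked on simulated data. Replicates are different animals. The 9 genes and all lists were chosen with earlier results of these data known. Named genes are the 9, from other lists at most 3 of those in most tables, and the 5 with the most similar pattern. Alternatives were a -log10 q of at least 5, equal numbers of best peaks, summit windows of 100 bp, no centering, quantile normalization, the best peak by q, gene bodies for table rows, and leaving out each animal.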

Additional observations from a re-analysis of the deposited data

How the results depend on the processing

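Regions called for genotype numbered 1 under the 3 other peak definitions and without any 1 animal, and genes called for genotype numbered 0 under all 4 other settings and without any 1 animal. Regions called for age numbered 0 under the 3 other peak definitions and 0 to 47 without 1 animal: 47 without 1 trained WT animal of 8 months, 9 without 1 naive WT animal of 8 months, 7 without 1 naive KI animal of 5 months, 1 without 1 trained KI animal of 5 months, and 0 without each of the rest; the cause was not tested. Genes called for age numbered 0 under 3 of 4 other settings and without any 1 animal, and 1 with the best peak chosen by -log10 q; the cause was not tested. The trained-minus-naive difference in regions called was -0.75, and it lay between -1.41 and 0.11 without 1 animal. It was 0.00 with a -log10 q of at least 5 and 1.83 with equal numbers of best peaks, so its sign depended on the setting. These values lay within 1 SD between animals of -0.75, but that SD is the spread of animals and not the error of the difference. Summit windows were not used for it. The 125 table rows of the 9 genes were also 125 by overlap with the gene bodies. The difference of Sik1 between genotypes stayed between 0.301 and 0.420 and did not pass under any of the 4 other settings or without any 1 of the 24 animals. No paired analysis was possible because each animal is in 1 condition and the inputs that share its number were not analysed here. The 3 animals per condition and the unknown depth of each single library limit all of these values.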
